A study of Mus musculus with 31 samples.

Results

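The genes described here were 10 members of the growth hormone, insulin-like growth factor (IGF) and leptin receptor axis, chosen by gene symbol from the 31172 symbols used in each liver: *Ghr*, *Lepr*, *Stat5a*, *Stat5b*, *Socs2*, *Igf1*, *Igfals*, *Igfbp1*, *Igfbp2* and *Igfbp3*. No expression threshold entered the choice, but it was made with earlier results of these livers known, so the differences of the members describe these livers and are not independent support for a change of the axis. All 10 passed the minimum level in each comparison (a group median of 5 TPM or more in any group compared, the deposited unit, which here behaves as reads per library total and not per length). In both dose pairs *Lepr* passed it only through the group where it was higher. Its medians were 19.97 TPM (control) and 4.55 TPM (treated) at 20 mg/kg, and 3.36 TPM (control) and 9.39 TPM (treated) at the lower doses. Its tests are thus not free of that choice.

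RNA came from the livers of 31 *hFIX-R29X* mice, which carry a human factor IX minigene with the nonsense mutation R29X under a transthyretin promoter that acts mainly in hepatocytes, and which lack mouse *F9*; the controls shared this genotype. Antisense oligonucleotides (ASOs) coupled to GalNAc, a sugar that directs them to hepatocytes, were given subcutaneously to animals 8 to 14 weeks old. The treatment entry of the labels gives 6 doses, 5 days apart, while their dose entries say weekly, and the methods place collection 48 h after the last dose. DPBS served as vehicle in 6 females and 5 males. Control-GalNAc-ASO was used at 15 mg/kg in 2 females and 2 males, and at 20 mg/kg in 3 of each sex. *Upf3b*-GalNAc-ASO was used at 10 mg/kg in 2 females and 3 males, and at 20 mg/kg in as many of each. *Upf3b* encodes a factor of nonsense-mediated mRNA decay, and the ASO was used to lower it. The lower doses of the 2 ASOs differed (10 against 15 mg/kg), so only the 20 mg/kg pair was matched in dose.

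Growth hormone from the pituitary binds its receptor, encoded by *Ghr*, on hepatocytes, and the kinase JAK2 then activates the transcription factors STAT5A and STAT5B. STAT5 raises transcription of *Igf1*, *Igfals* and *Socs2* in liver, and the SOCS2 protein limits signalling from the receptor. Liver is the main source of circulating IGF-I, which travels in blood bound to IGF binding proteins, and the sex difference in growth hormone pulses sets many of the sex differences of mouse liver.

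The oligonucleotide sequences are shown because the treatment rests on them. Both were 16 bases long with a DNA gap of 10 bases, in capitals, between modified wings of 3 bases:

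Upf3b-GalNAc-ASO: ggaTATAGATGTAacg

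Control-GalNAc-ASO: ggcCAATACGCCGtca

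The *Upf3b* ASO was complementary over 16 of 16 bases to exon 10, the last, in the 3′ UTR of *Upf3b* on the minus strand (GRCm38, chrX:37091973-37091988). Among the spliced protein-coding transcripts of the members (GENCODE M21, introns not searched) the best ungapped match had between 9 and 11 of 16 bases. The closest sites in the receptor transcripts are printed below that of *Upf3b*, with paired positions in capitals:

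Upf3b site: CGTTACATCTATATCC

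Ghr closest site: CcTTACcaCTActgCC

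Lepr closest site: aGTgACATCaggATCC

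*Ghr* matched at 10 bases, which 88.8% of the 21877 genes searched reached, and *Lepr* at 11 bases, which 44.1% of genes reached. For the Control-GalNAc-ASO the best match was 10 bases in both receptors, reached by 85.9% of genes.

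*Upf3b*, the targeted gene, stood at 97.3 ± 33.2 TPM in DPBS livers (SD, n = 11), 57.8 ± 22.1 at 15 mg/kg (n = 4) and 110.8 ± 21.8 at 20 mg/kg (n = 6) of Control-GalNAc-ASO, and 21.5 ± 20.0 (n = 5) and 7.80 ± 5.82 (n = 5) at 10 and 20 mg/kg of *Upf3b*-GalNAc-ASO. Relative to the control ASO it was lower by a log2 fold change of -3.87 at 20 mg/kg (limma adjusted p = 1.59e-05), and by -1.73 at the lower doses, which did not pass (adjusted p = 0.211). In the 10 mg/kg group the 5 livers held 5.97, 20.7, 53.7, 3.95 and 23.3 TPM of *Upf3b*, and the third value, from the library labelled replicate 3, lay inside the 27.1 to 78.7 TPM of the 4 controls. Its *Upf3b* level thus goes against its label, and it was also the library of lowest depth. Results of the members against the control ASO at the lower doses are therefore given with and without it. Results for genes other than the members include it. The commonest TPM value above 0 in each mouse, taken as the step of 1 read, gave depths of 1012526 to 7334110 reads (median 3597929). In 4 mice, all female, the depth was 1200938 reads or fewer, with the next at 2028489: *Upf3b*-GalNAc-ASO 10 mg/kg replicate 3, DPBS replicates 6 and 7, and Control-GalNAc-ASO 20 mg/kg replicate 1. The first of these correlated with its group at a median r of 0.830 over genes. Hepatocyte markers were at 12827 to 34852 summed TPM in all livers, and lymphocyte markers at 18.6 at most.

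The receptor transcript *Ghr* was the member with the clearest difference. *Ghr* lies at chr15:3317760-3583492 on the minus strand (GRCm38). At 20 mg/kg of *Upf3b*-GalNAc-ASO the 5 livers held 32.2, 27.1, 75.5, 48.8 and 63.2 TPM of *Ghr*. The 6 livers given Control-GalNAc-ASO at that dose held 104.1, 192.9, 133.7, 144.8, 113.7 and 115.4 TPM. Every treated liver was below every control liver, and the mean was 63.2% lower (49.4 ± 20.4 against 134.1 ± 32.4 TPM, SD). On the log2(TPM + 1) scale *Ghr* fell by 1.51 (SE 0.31, adjusted p = 0.0117, limma over all genes). The call was lost without treated replicate 1 (log2 fold change -1.38, adjusted p = 0.0509) and with a plain variance prior (adjusted p = 0.0612).

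At the lower doses the 5 *Upf3b*-GalNAc-ASO livers held 42.5, 74.4, 55.8, 94.6 and 75.0 TPM of *Ghr*, and the 4 control livers 170.5, 222.0, 162.9 and 86.4 TPM. Of the 5 treated livers 4 were below all controls, and the ranges overlapped through the female control of 86.4 TPM. The log2 fold change was -1.26 (SE 0.32), with an adjusted p of 0.0882, and without the library labelled replicate 3 it was -1.32 (adjusted p = 0.0401). The *Ghr* effect at the higher dose minus that at the lower was -0.30 on the log2 scale (SE 0.45, adjusted p = 0.881), so a difference between the dose pairs was not shown.

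DPBS livers spanned 72.0 to 204.3 TPM of *Ghr* with a median of 132.6. Against them *Ghr* fell by 1.58 at 20 mg/kg of *Upf3b*-GalNAc-ASO (SE 0.28, adjusted p = 0.00306, limma), with 4 of 5 livers below all 11. At 10 mg/kg the log2 fold change was -1.10 (SE 0.25, adjusted p = 0.0566), and -1.13 without the library labelled replicate 3 (adjusted p = 0.0800). The control ASO gave 0.15 at 15 mg/kg (adjusted p = 0.905) and -0.05 at 20 mg/kg (adjusted p = 0.949). In order of mean TPM the groups were Control-GalNAc-ASO 15 mg/kg (160.4 ± 55.9, SD), DPBS (141.2 ± 45.3), Control-GalNAc-ASO 20 mg/kg (134.1), *Upf3b*-GalNAc-ASO 10 mg/kg (68.5 ± 20.0) and *Upf3b*-GalNAc-ASO 20 mg/kg (49.4). Of neighbours in this order, only the third and the fourth did not overlap.

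The 2 sexes showed the lower *Ghr* level alike in direction. At 20 mg/kg the means were 47.7 TPM in 2 treated and 120.9 TPM in 3 control females, and 50.5 TPM in 3 treated and 147.3 TPM in 3 control males. The treatment by sex interaction was -0.22 on the log2 scale (SE 0.63, adjusted p = 0.999). In bulk liver RNA, fewer cells of a type and less RNA per cell cannot be told apart. Summed hepatocyte markers were 14396 to 27487 TPM in the 20 mg/kg *Upf3b*-GalNAc-ASO livers and 12827 to 24902 TPM in their controls, and none of the 6 tested passed. None of the 7 tested Kupffer cell and macrophage markers, 3 stellate cell markers and 2 cholangiocyte markers passed either.

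Of the 6 sinusoidal endothelial markers 1 passed in that comparison: *Pecam1*, an adhesion molecule of endothelial cells, at 1745 ± 208 against 809.6 ± 401 TPM (SD; log2 fold change 1.27, SE 0.28, adjusted p = 0.0201). The other 5 were lower and did not pass. The summed endothelial list, led by *Pecam1*, was 1537 to 2223 TPM in treated livers and 601.9 to 1661 TPM in controls. No marker of it was at 0 in all livers of either group. The part of this list in the lower *Ghr* was not tested.

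**Figure D1:**
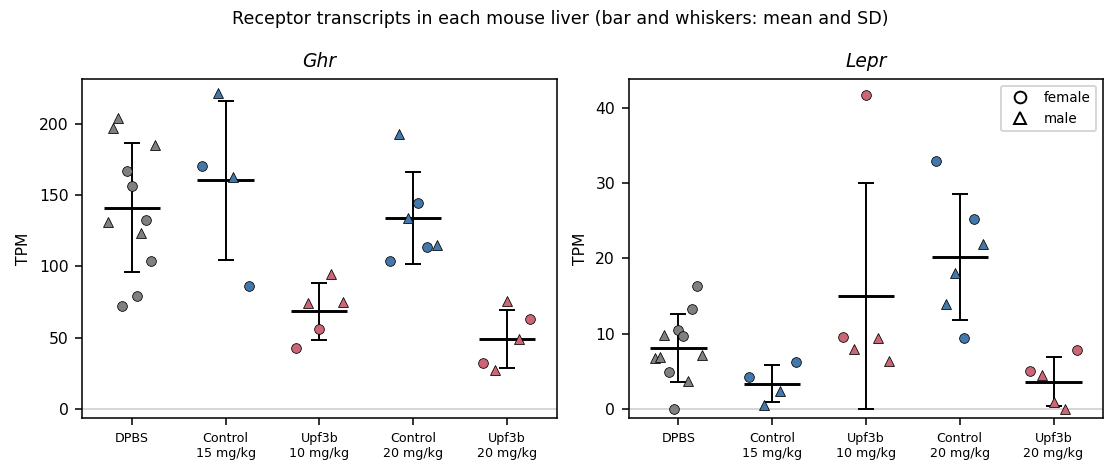
*Ghr* (left) and *Lepr* (right) in TPM for each mouse by group; circles are females, triangles males, and bars and whiskers give the mean and SD. *Ghr* was 27.1 to 75.5 TPM at 20 mg/kg of *Upf3b*-GalNAc-ASO, below the 104.1 to 192.9 TPM of its controls, while *Lepr* was higher than its controls at the lower dose and below them at the higher.

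*Lepr* encodes the leptin receptor, a cytokine receptor of the same family as the growth hormone receptor, and lies at chr4:101717404-101815352 on the plus strand (GRCm38). Its level was low, from 0 to 41.8 TPM, or about 0 to 107.6 reads per liver. It differed from its controls in opposite directions in the 2 dose pairs. Treated livers at 20 mg/kg held 5.0, 4.5, 0.9, 0 and 7.8 TPM and the controls 32.9, 14.0, 18.0, 9.4, 25.2 and 21.9 TPM. All 5 treated livers were below all 6 controls. *Lepr* fell by 2.40 on the log2 scale (SE 0.57, adjusted p = 0.0286), and without the control liver of lowest depth the value was -2.33 (adjusted p = 0.0653). The call was kept in 5 of the 11 fits that each left out 1 mouse, with log2 values of -2.67 to -2.03, and was lost without control replicate 1, 2, 3, 5 or 6 or treated replicate 1. It was also lost with no minimum TPM (adjusted p = 0.0612) and with a plain variance prior (adjusted p = 0.0525).

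In the lower-dose pair the treated livers held 9.6, 8.0, 41.8, 9.4 and 6.4 TPM of *Lepr*, against 4.3, 0.6, 2.4 and 6.2 TPM in controls. Here all 5 treated livers were above all 4 controls, the nearest pair differing by 6.4 against 6.2 TPM, and the highest value was from the library labelled replicate 3, whose *Upf3b* level and depth are given above. The log2 fold change was 1.87 (SE 0.58, adjusted p = 0.165), and it passed without treated replicate 1 (2.24, adjusted p = 0.0429). Without the library labelled replicate 3 it was 1.52 (adjusted p = 0.220). The difference of the 2 effects, higher minus lower dose, was -4.22 on the log2 scale (SE 0.80). It had the smallest p of the 9797 genes tested for such a difference and did not pass (limma adjusted p = 0.126); no gene did, with 799 at an unadjusted p under 0.05 (0% called). It passed without treated 10 mg/kg replicate 1 (-4.46, adjusted p = 0.0211) or control 20 mg/kg replicate 4 (-4.53, adjusted p = 0.0360), and was -3.91 without the library labelled replicate 3 (adjusted p = 0.175).

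The control groups of the 2 dose pairs also stood apart. Under Control-GalNAc-ASO the mean of *Lepr* was 20.2 ± 8.38 TPM at 20 mg/kg (SD, n = 6) and 3.37 ± 2.43 TPM at 15 mg/kg (n = 4), and these groups did not overlap. DPBS livers lay between, at 8.08 ± 4.52 TPM (n = 11). Against DPBS the log2 fold changes of *Lepr* were 1.39 (SE 0.49, adjusted p = 0.426) for the control ASO at 20 mg/kg and -0.98 (SE 0.62, adjusted p = 0.737) at 15 mg/kg. *Upf3b*-GalNAc-ASO against DPBS gave 0.79 at 10 mg/kg (adjusted p = 0.728; 0.31 without the library labelled replicate 3) and -1.02 at 20 mg/kg (adjusted p = 0.542).

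In order of mean *Lepr* TPM the groups were Control-GalNAc-ASO 20 mg/kg, *Upf3b*-GalNAc-ASO 10 mg/kg (15.0 ± 15.0, SD), DPBS, *Upf3b*-GalNAc-ASO 20 mg/kg (3.65 ± 3.21) and Control-GalNAc-ASO 15 mg/kg, and every pair of neighbours overlapped. *Lepr* was listed at 0 in 2 livers, DPBS replicate 5 and *Upf3b*-GalNAc-ASO 20 mg/kg replicate 5, where 3 reads, the limit that a count of 0 allows, equal 1.17 and 1.47 TPM. These limits cover counting error only. The interaction of treatment with sex was -1.57 (SE 1.11, adjusted p = 0.999).

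Over all 31 livers, the 3 genes ranked most like *Ghr* by Spearman correlation, of 8503 with a median of at least 5 TPM, were *Hsd3b3* (rho 0.80), *Ric8b* (0.74) and *Serpine2* (0.73). For *Lepr* they were *Mpp5* (0.77), *Ppig* (0.76) and *Ergic2* (0.73). *Ghr* and *Lepr* themselves had a rho of 0.02. The points share the 5 groups, both sexes and a wide range of depth.

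With both receptors called, 2 of the 10 members passed an adjusted p under 0.05 in the 20 mg/kg comparison, both lower, where 2.52% of the 9376 genes tested passed (236 genes). Of these members, *Lepr* met the minimum level there through its control group only. No member passed in the lower-dose comparison, where 0.295% of 9166 genes did (27 genes). By sign, 6 members were higher and 4 lower at 20 mg/kg, with a median log2 fold change of 0.27 against -0.12 over all genes. At the lower doses 8 were higher and 2 lower, with a median of 0.28 against -0.03. Without the library labelled replicate 3, *Ghr* passed there, and the other 8 members after *Ghr* and *Lepr* had log2 fold changes from -1.07 (*Igfbp1*) to 0.90 (*Stat5b*), none of which passed. *Igfals* moved from 0.03 to 0.45, *Igfbp2* from 0.23 to 0.60, *Igfbp3* from 0.26 to 0.52 and *Igf1* from 0.30 to 0.15. *Socs2* moved from 0.89 to 0.64, *Stat5a* from 0.72 to 0.60, *Stat5b* from 0.71 to 0.90 and *Igfbp1* from -1.05 to -1.07.

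**Figure D2:**
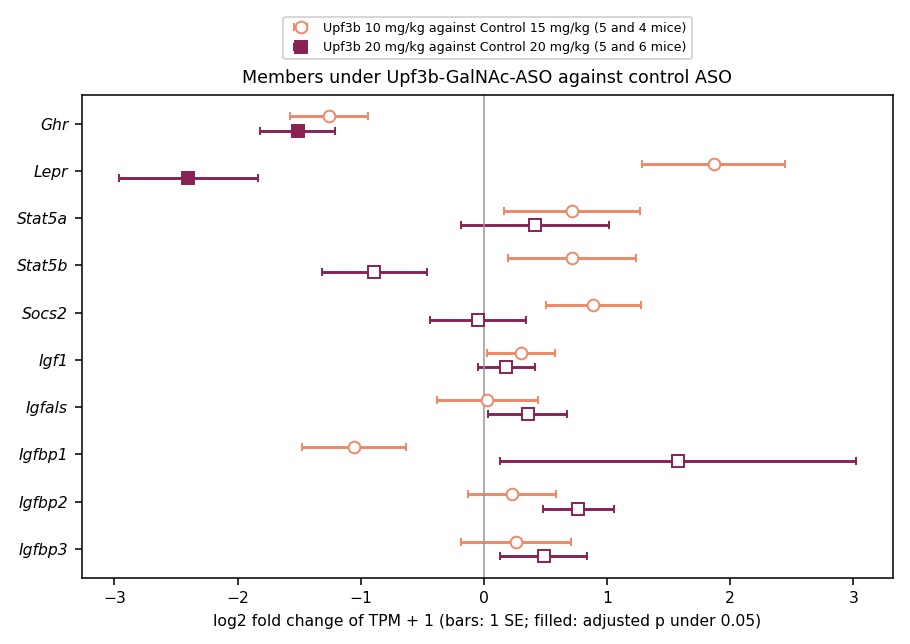
Log2 fold change of TPM + 1 for the 10 members (horizontal axis) in the lower-dose comparison (circles) and the 20 mg/kg comparison (squares); bars are 1 SE and filled symbols have an adjusted p under 0.05. *Ghr* was lower in both, *Lepr* lay on opposite sides of 0, and the other 8 members had open symbols in both.

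The transducers *Stat5a* and *Stat5b* lie side by side on chromosome 11, *Stat5b* at chr11:100780731-100850724 (minus strand) and *Stat5a* at chr11:100859351-100885169 (plus strand). They are close paralogs: 836 of the 31-base words in their spliced transcripts are shared (20.2% of those of *Stat5a* and 15.2% of those of *Stat5b*), but none in the last 500 bases of either longest transcript. Their split of reads is uncertain where reads fell in the shared part.

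*Stat5a* was 1.4 to 28.4 TPM over all livers. In *Upf3b*-GalNAc-ASO livers it was 13.3, 19.6, 23.9, 5.2 and 8.0 TPM at 10 mg/kg, and 2.0, 13.0, 20.7, 6.4 and 20.3 TPM at 20 mg/kg. The controls held 9.9, 9.8, 2.2 and 13.7 TPM at 15 mg/kg and 7.4, 10.6, 7.6, 13.0, 1.4 and 6.6 TPM at 20 mg/kg. The groups overlapped in both dose pairs. The log2 fold changes were 0.72 (SE 0.55, adjusted p = 0.539) and 0.42 (SE 0.60, adjusted p = 0.745).

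*Stat5b*, the main STAT5 of growth hormone signalling in liver, was uneven within groups. Most livers had 2.2 to 45.6 TPM, and 5 had 84.4 to 128.0 TPM. The 5 were Control-GalNAc-ASO 20 mg/kg replicates 3 and 5 (128.0 and 85.7 TPM), *Upf3b*-GalNAc-ASO 10 mg/kg replicate 4 (126.6 TPM) and DPBS replicates 6 and 7 (112.9 and 84.4 TPM). They thus came from 3 of the 5 groups and both sexes. The log2 fold change of *Stat5b* was 0.71 at the lower doses (SE 0.52, adjusted p = 0.512) and -0.89 at 20 mg/kg (SE 0.43, adjusted p = 0.267). Its effects in the 2 dose pairs differed by -1.58 (SE 0.68, adjusted p = 0.559), and by -1.71 without the library labelled *Upf3b*-GalNAc-ASO 10 mg/kg replicate 3 (limma adjusted p = 0.701). The control ASO at 20 mg/kg against DPBS gave 1.144 (SE 0.54, adjusted p = 0.499).

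*Socs2* (chr10:95385362-95417180, minus strand) was 15.9 to 151.7 TPM. Treated livers at 20 mg/kg held 116.9, 25.8, 15.9, 87.2 and 79.8 TPM and the controls 117.0, 36.8, 50.3, 42.7, 92.7 and 40.0 TPM. These ranges overlapped, and the log2 fold change was -0.04 (SE 0.39, adjusted p = 0.964). At the lower doses the treated livers held 77.7, 70.5, 151.7, 27.3 and 35.1 TPM against 36.1, 29.6, 27.4 and 48.7 TPM, with 3 of 5 above all controls. The log2 fold change was 0.89 (SE 0.39) and did not pass (adjusted p = 0.285).

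**Figure D3:**
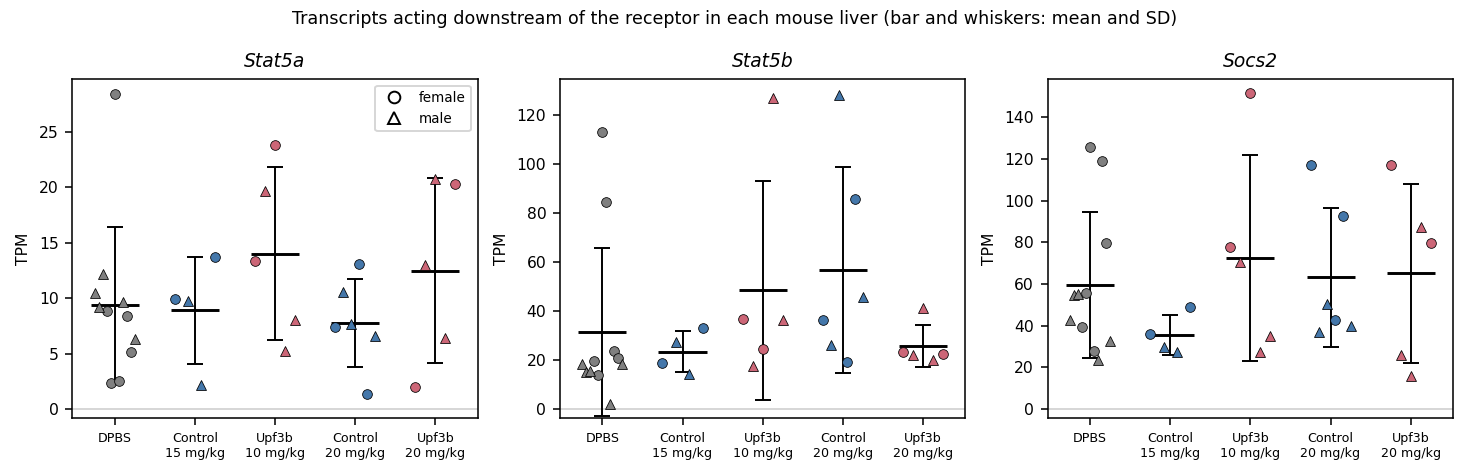
*Stat5a*, *Stat5b* and *Socs2* in TPM for each mouse by group; circles are females, triangles males, and bars and whiskers give the mean and SD. The 5 livers with 84.4 TPM or more of *Stat5b* stand apart from the rest in 3 of the 5 groups, and treated and control ranges overlap in all 3 panels.

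The product of the axis, *Igf1* (chr10:87858265-87937042, plus strand), was at 594.0 to 1697 TPM with a coefficient of variation of 24.7% over all livers, the lowest of the 10 members. At 20 mg/kg the treated livers held 993.9, 1133, 594.0, 880.6 and 1033 TPM, and the controls 936.0, 793.5, 850.2, 893.3, 834.4 and 608.6 TPM. At the lower doses the values were 1272, 678.2, 1697, 783.6 and 688.6 TPM against 983.0, 841.3, 649.1 and 811.2 TPM. The ranges overlapped in both. The log2 fold changes of *Igf1* were 0.18 (SE 0.23, adjusted p = 0.709) and 0.30 (SE 0.28, adjusted p = 0.610), with neither passing.

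*Igfals* (chr17:24865997-24882010, plus strand) encodes the acid-labile subunit, which holds IGF-I and an IGF binding protein in a large complex in blood. Treated livers at 20 mg/kg held 150.0, 40.1, 157.0, 129.9 and 231.5 TPM and controls 157.0, 67.2, 97.0, 137.8, 144.6 and 59.1 TPM. At 10 mg/kg they held 233.8, 115.2, 56.8, 77.9 and 95.6 TPM, against 122.4, 102.8, 55.4 and 174.1 TPM. Treated and control livers overlapped in both, with log2 fold changes of 0.35 (SE 0.32, adjusted p = 0.585) and 0.03 (SE 0.41, adjusted p = 0.983).

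Among the 9 members with a promoter window, *Igfals* was the only one where the STAT5 motif TTCNNNGAA, which reads the same on both strands, was found. *Socs2* had no window, so its promoter was not searched. RefSeq (GRCm38.p6) windows of 250 bases before to 50 after a start site were available for 9 of the 10 members, 16 windows in all, and 2 of them, both at *Igfals*, contained it. Of all 32851 windows 8.30% did. The motif is in capitals, starting 236 bases before one start site and 58 bases before another, and both lie within the annotated *Igfals* gene:

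Igfals chr17:24877598-24877626: gatctataatTTCTCAGAAaagaggctga

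Igfals chr17:24878163-24878191: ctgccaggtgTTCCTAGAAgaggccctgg

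**Figure D4:**
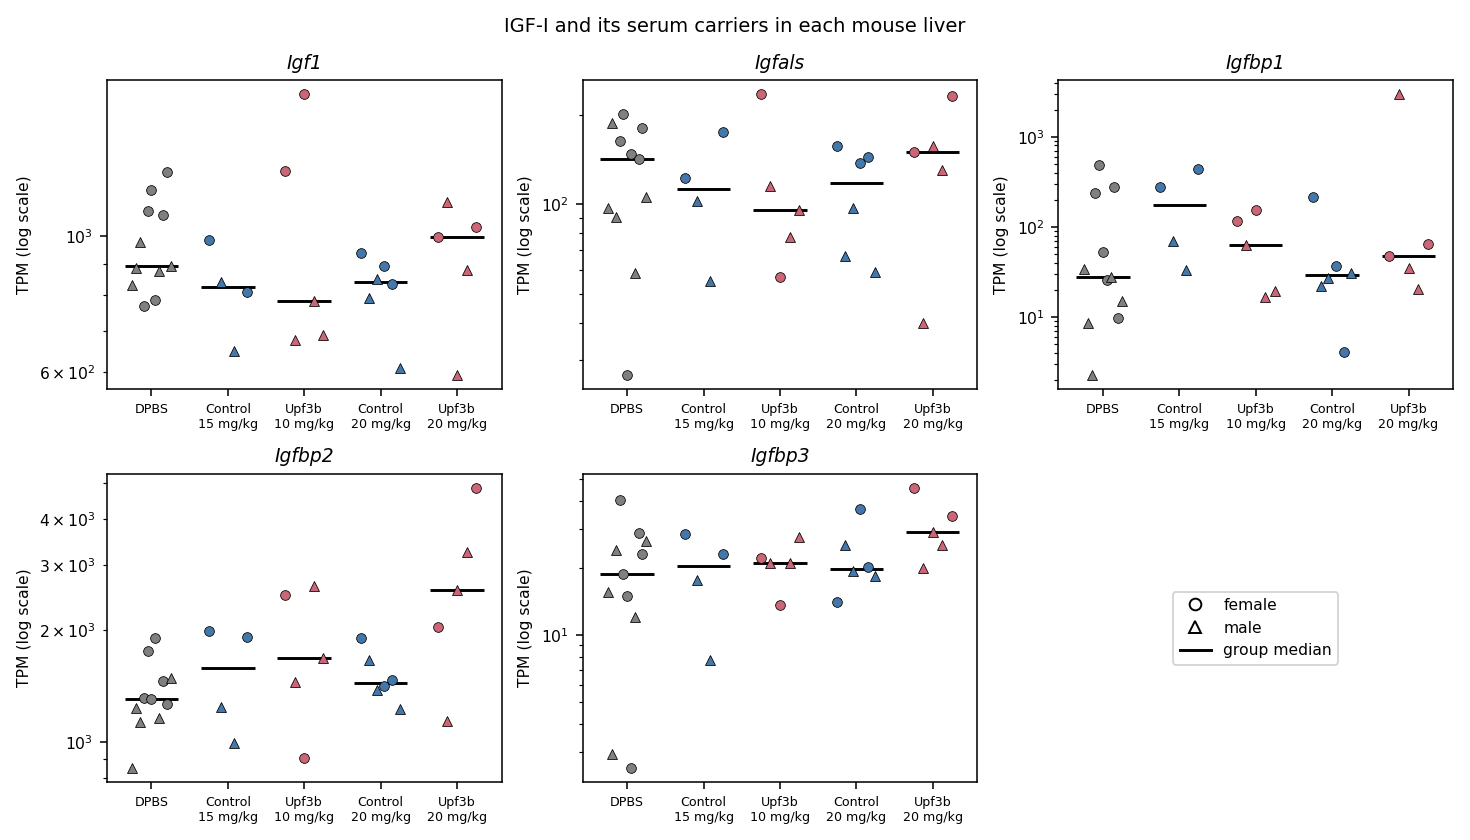
*Igf1*, *Igfals*, *Igfbp1*, *Igfbp2* and *Igfbp3* in TPM on log axes for each mouse by group; circles are females, triangles males, and the line is the group median. *Igfbp2* was highest at 20 mg/kg of *Upf3b*-GalNAc-ASO, with 4 of 5 livers above all controls, and *Igfbp1* ranged from 2.3 to 2962 TPM.

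The binding proteins carry IGFs and set how much reaches its receptor. *Igfbp2* (chr1:72824503-72852474, plus strand) was at 847.3 to 4857 TPM. The treated livers at 20 mg/kg held 2040, 1136, 2566, 3259 and 4857 TPM and the controls 1904, 1668, 1379, 1414, 1464 and 1224 TPM. Of the 5 treated livers 4 were above all controls and 1 was below all of them. The log2 fold change was 0.77 (SE 0.29) and did not pass (adjusted p = 0.154). Leaving out each mouse in turn gave 0.51 to 1.01, and 1 of the 11 fits passed. That fit lacked treated replicate 2, the liver below all controls (1.01, limma adjusted p = 0.0221).

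Against the 11 DPBS livers, which spanned 847.3 to 1911 TPM, *Igfbp2* was higher by 0.97 on the log2 scale at 20 mg/kg (SE 0.24, adjusted p = 0.0484), with 4 of 5 above all of them. That call was kept in 3 of the 16 fits that each left out 1 mouse, with log2 values of 0.75 to 1.20. The highest was without treated replicate 2 (limma adjusted p = 0.00309). At 10 mg/kg the livers held 2487, 1447, 903.3, 2634 and 1689 TPM against 1996, 1245, 994.0 and 1921 TPM, overlapping (log2 fold change 0.23, SE 0.36, adjusted p = 0.785).

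*Igfbp1* and *Igfbp3* are neighbours on chromosome 11, at chr11:7197782-7202546 (plus strand) and chr11:7206086-7213923 (minus strand). *Igfbp1*, which insulin represses and fasting raises, varied the most of the 10, with a coefficient of variation of 282%. At 20 mg/kg the treated livers held 47.9, 2962, 34.5, 20.5 and 64.6 TPM and the controls 212.3, 22.2, 27.1, 36.4, 4.1 and 30.6 TPM. A single male held 2962 TPM and the rest overlapped (log2 fold change 1.58, SE 1.45, adjusted p = 0.609). Without that mouse the value was 0.37 (adjusted p = 0.851). At the lower doses the values were 117.2, 62.2, 154.8, 16.7 and 19.3 TPM against 275.7, 69.6, 33.1 and 442.5 TPM, overlapping again (-1.05, SE 0.42, adjusted p = 0.248). The control ASO at 15 mg/kg against DPBS gave 1.91 (SE 0.88, adjusted p = 0.694).

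*Igfbp3*, the main carrier of IGF-I in the large complex, was 2.5 to 45.8 TPM. Its livers at 20 mg/kg held 45.8, 20.0, 29.0, 25.4 and 34.1 TPM against 14.0, 25.3, 19.5, 36.9, 20.3 and 18.4 TPM in controls (log2 fold change 0.49, SE 0.35, adjusted p = 0.483). At 10 mg/kg they held 22.1, 21.1, 13.7, 21.1 and 27.6 TPM against 28.3, 17.6, 7.7 and 23.1 TPM (0.26, SE 0.45, adjusted p = 0.812). Treated and control livers overlapped in both. Against DPBS the value at 20 mg/kg was 0.99 (SE 0.49, adjusted p = 0.431).

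Across the comparisons with DPBS the background of calls was low. At 20 mg/kg of *Upf3b*-GalNAc-ASO 1.13% of 9078 genes passed (103 genes), with *Ghr* and *Igfbp2* the 2 members among them. At 10 mg/kg 0.376% of 9032 genes passed (34 genes) and no member did. For the control ASO 0% passed in limma at 15 mg/kg, of 8971 genes with 644 at an unadjusted p under 0.05, and 0% at 20 mg/kg, of 9140 genes with 905 so. The comparisons share their DPBS livers, so their values stand side by side and are not separate evidence. The members not given singly against DPBS (*Igf1*, *Igfals*, *Igfbp1*, *Igfbp2*, *Igfbp3*, *Socs2*, *Stat5a* and *Stat5b*, where no value stands above) had log2 fold changes of -0.54, for *Socs2* under the control ASO at 15 mg/kg, to 1.53, for *Igfbp1* under *Upf3b*-GalNAc-ASO at 20 mg/kg, and none passed. The last was 0.17 without the male of 2962 TPM (replicate 2).

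The other genes of the pathway gave few calls. Of 23 further signalling genes of growth hormone, IGF, insulin and leptin, 16 to 18 were tested in the ASO comparisons and none passed. Of the 15 listed male-biased targets of growth hormone, *Slco1a1*, an organic anion transporter, was lower than under the control ASO at 20 mg/kg. Its log2 fold change was -1.66 (SE 0.37, limma adjusted p = 0.0204), at 70.2 ± 67.8 against 171.0 ± 142.5 TPM (SD). By sign 12 of its 13 tested list members were lower there, with a median of -0.99, beside -0.12 for all genes. Of the tested female-biased targets 8 of 10 were lower too (median -1.02), and none passed. Against DPBS at 20 mg/kg no gene of either list passed. By sign 12 of 13 male-biased targets (median -0.47) and 10 of 11 female-biased targets (median -1.23) were lower than in DPBS livers. At 10 mg/kg 7 of 13 male-biased targets were higher than in DPBS livers (median 0.20), while 10 of 13 were lower than under the control ASO (median -0.20). The control ASO itself had 10 of 13 higher than DPBS at 15 mg/kg (median 0.33) and 8 of 13 at 20 mg/kg (median 0.22). None passed in these 4 comparisons.

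At the lower doses the female-biased *Acot3*, an acyl-CoA thioesterase, was lower than in controls by 2.64 (SE 0.52, limma adjusted p = 0.0491), at 4.43 ± 6.07 against 37.4 ± 37.4 TPM (SD). *Acot3* met the minimum level there through its control group only, so its test is not free of that choice. Over all livers its median was 53.3 TPM in females and 1.36 TPM in males, and each of the 2 groups held only 2 females. From the fasting-regulated list *Tat*, a tyrosine-degrading aminotransferase, was lower by 1.99 (SE 0.34, adjusted p = 0.0237), at 179.2 ± 46.8 against 735.6 ± 276.8 TPM. Of the 8 fasting-regulated genes tested there it was the only one to pass, and 6 of 8 were lower. Both values include the library labelled replicate 3. Against DPBS at 10 mg/kg no gene of these 2 lists passed. By sign 9 of 11 female-biased targets were lower there (median -0.71), and 5 of 8 fasting-regulated genes were higher (median 0.14). Under the control ASO at 15 mg/kg all 8 fasting-regulated genes were higher than in DPBS livers (median 0.57), and none passed.

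Between the sexes, 1 member passed over the 31 livers with group as a term, where 2.75% of 8915 genes passed (245 genes). *Socs2* was 80.7 ± 38.7 TPM in 15 females and 40.9 ± 18.8 TPM in 16 males (SD), lower in males by 0.95 on the log2 scale (-0.95, SE 0.24, limma adjusted p = 0.0141), and by 0.87 without *Upf3b*-GalNAc-ASO 10 mg/kg replicate 3 (-0.87, adjusted p = 0.0314). Females spanned 27.7 to 151.7 TPM with a median of 79.6, and males 15.9 to 87.2 TPM with a median of 35.9, so the sexes overlapped. In the 11 DPBS livers alone the value was -0.69 and did not pass (adjusted p = 0.582).

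For the rest, males against females gave -0.36 for *Igf1* (SE 0.13, adjusted p = 0.157), -0.62 for *Igfals* (SE 0.24, adjusted p = 0.245) and 0.45 for *Ghr* (SE 0.17, adjusted p = 0.215). Without the 4 mice of lowest depth, *Igfals* passed at -0.92 (adjusted p = 0.0019), as it did without DPBS replicate 6 alone (-0.77, adjusted p = 0.0180). *Igfbp1* was at -1.56 (adjusted p = 0.389) and passed without the male of 2962 TPM (-1.94, adjusted p = 0.0491). The other values were -0.68 for *Lepr* (adjusted p = 0.502), -0.35 for *Stat5b* (adjusted p = 0.831), -0.31 for *Igfbp3* (adjusted p = 0.801), -0.31 for *Igfbp2* (adjusted p = 0.515) and 0.08 for *Stat5a* (adjusted p = 0.974). By sign 8 of 10 members were lower in males, with a median of -0.36 against -0.04 over all genes.

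Most of the known sex-biased targets of growth hormone separated the sexes more widely. All 14 tested male-biased genes, of 15 listed, were higher in males, by 4.66 at the median on the log2 scale. All 11 tested female-biased genes, of 17 listed, were lower, by 3.26 (median -3.26). Genes were tested only if their median reached 5 TPM in either sex, and some reached it only where they were high. Median TPM in females and males was 64.2 and 0 for *Sult3a1*, and 0.98 and 216.6 for *Cyp4a12a*. These counts and medians thus partly follow from that choice. The smallest differences of the female-biased list were within the range of the members, at -0.82 for *Cux2*, -1.30 for *Cyp2a4* and -1.40 for *Trim24*, named after their values were seen. *Mup20*, a urinary protein whose family shares near-identical sequence and whose reads are thus uncertain, was at 7225 ± 2221 TPM in males and 182.3 ± 85.3 TPM in females (SD). The cytochrome *Cyp4a12a* was at 226.2 ± 58.2 and 2.05 ± 2.50 TPM, and the other smallest p values were those of *Cyp4a12b*, *Cyp2d9*, *Cyp7b1* and *Elovl3*. Female-biased *Sult3a1*, a sulfotransferase, was at 69.2 ± 59.9 TPM in females and 0.066 ± 0.11 TPM in males, followed by *A1bg*, *Acot3*, *Fmo2* and *Cyp17a1*.

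Among the further signalling genes 2 of 16 tested passed between the sexes. *Prlr*, the receptor of prolactin, was at 167.2 ± 41.5 TPM in females and 50.5 ± 13.8 TPM in males (log2 fold change -1.67, SE 0.16, adjusted p = 2.73e-10). *Bcl6*, a repressor that acts against STAT5 at many sites, was higher in males (1.49, SE 0.35, adjusted p = 0.0067; 52.6 ± 44.0 against 21.3 ± 23.0 TPM). The interaction of treatment and sex at 20 mg/kg called 0.0107% of 9376 genes, a single gene (*Hamp2*, a hepcidin gene), and no member. Positive values mean a higher treatment effect in males than in females. Of the 10 tested female-biased targets 7 were positive and 3 negative (median 1.81, against -0.20 over all genes), and none passed. In limma 4 of these 10 had an unadjusted p under 0.05, as did 3.03% of all genes. The lower level of this list given above pools both sexes, with 2 treated and 3 control females.

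**Figure D5:**
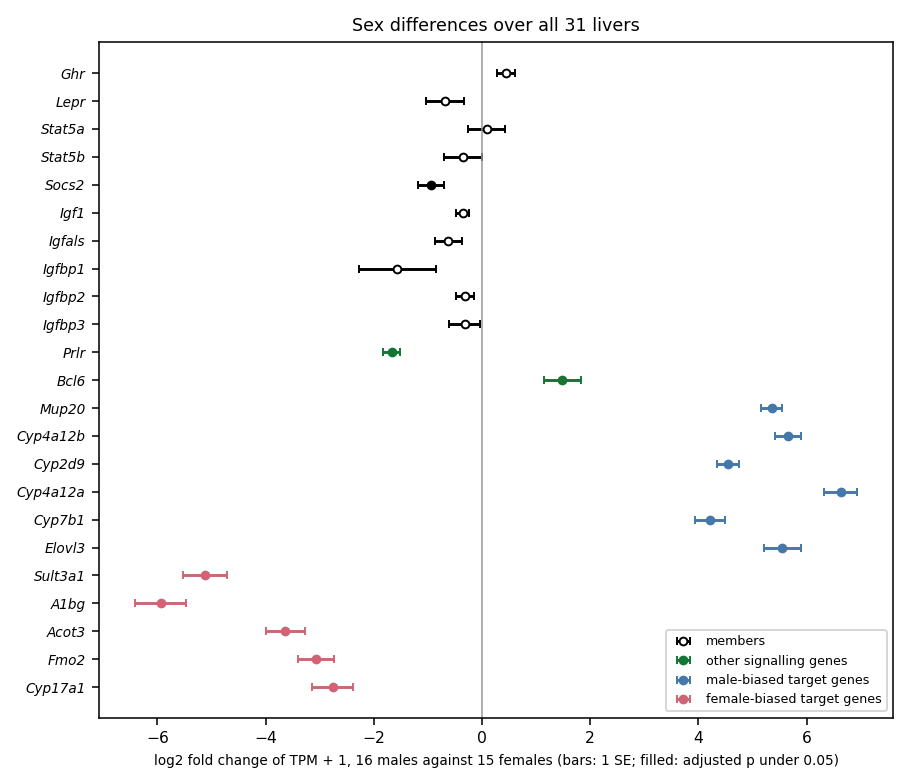
Log2 fold change of TPM + 1 in 16 males against 15 females (horizontal axis) for the 10 members (black), other signalling genes (green), male-biased (blue) and female-biased (red) targets; bars are 1 SE and filled symbols have an adjusted p under 0.05. The members lay between -1.56 and 0.45, and *Socs2* was the filled one, while the sex-biased targets plotted, those with the smallest p, lay outside that range.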

How the data were processed

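Liver RNA of 31 mice was sequenced, 1 library per animal. The authors quantified reads with Salmon 0.7.2 (after bcl2fastq 2.17.1.14, per the submitters' processing notes) against GRCm38 cDNA and deposited, for every mouse, a TPM value per gene symbol. The labels name a 3′ kit and the methods a TruSeq kit. A single step per mouse gave whole reads for most values at each gene length, but less often in the shortest genes. The medians were 55.4%, 80.3% and 73.3% of values in the shortest, middle and longest genes, split evenly by longest transcript. Most values thus behaved as reads per library total, not divided by length, least clearly in the shortest genes. Levels were not compared between genes. Of 31198 symbols, 26 turned into dates were left out. The steps of the TPM values gave whole reads (within 0.02) for 71.9% to 82.0% of values, too few for a count test, so they gave depth only; 3 reads equalled 0.406 to 2.94 TPM.

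Groups, sex and replicate numbers came from the labels. Genes whose median reached 5 TPM in any group of a comparison were fitted together by limma 3.58.1 (R 4.3.3; eBayes with trend and robust) on log2(TPM + 1) with sex as covariate, two-sided, with Benjamini-Hochberg adjustment. The members and the lists were chosen with earlier results of these data known. Text was given to all members and, from the other lists, to genes that passed, up to 6 per list between the sexes by smallest p, of which 1 is not reported here. The gene singled out in the interaction was chosen after its value was seen. Same-numbered mice did not deviate together (correlations -0.406 to 0.126). Alternatives were other pseudocounts, minimum levels, scaling, variance priors and covariates, a replicate block and leaving out each mouse; leaving out the 4 mice of lowest depth was chosen after seeing the data. Mice given *Upf1* oligonucleotides were not analysed here.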

Additional observations from a re-analysis of the deposited data

Results flagged for a closer look

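In 4 of 40 sets tested (10 members in the 4 ASO groups), 1 mouse stood far from the others; chance gives about 1 in 20 such sets. *Igfbp1* was 2962 TPM in the male *Upf3b*-GalNAc-ASO 20 mg/kg replicate 2, with the next mouse at 64.6 TPM. *Lepr* was 41.8 TPM in the library labelled *Upf3b*-GalNAc-ASO 10 mg/kg replicate 3, which had the lowest depth and 53.7 TPM of *Upf3b*, inside the range of its controls, with the next at 9.57 TPM. *Stat5b* was 41.0 TPM in *Upf3b*-GalNAc-ASO 20 mg/kg replicate 4, with the next at 23.4 TPM. *Stat5a* was 1.38 TPM in Control-GalNAc-ASO 20 mg/kg replicate 5, with the next at 6.56 TPM. The effect of *Upf3b*-GalNAc-ASO on *Lepr* differed between the 2 dose pairs by -4.22 on the log2 scale, with the treated mice all above their controls at the lower doses and all below them at 20 mg/kg, and the test of that difference did not pass (limma adjusted p = 0.126).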

How the results depend on the processing

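Of 1182 values recomputed for 47 member results, 1108 kept their direction and side of the threshold, 34 lost and 14 gained a call, and 26 changed sign. Members called at 20 mg/kg against the control ASO were 1 (*Ghr*) with no minimum TPM or without the shallow mice, and 0 with a plain variance prior or the replicate block; against DPBS they were 1 (*Ghr*) with a pseudocount of 0.5 TPM, no minimum, a plain prior, no covariate or without the shallow mice, and 0 with the replicate block. The block gave *Ghr* -1.50 (adjusted p = 0.0858) and *Lepr* -2.26 (adjusted p = 0.123) against the control ASO, and *Ghr* -1.69 (adjusted p = 0.123) against DPBS. The count was 1 (*Ghr*) at the lower doses without the shallow mice, 1 (*Ghr*) at 10 mg/kg against DPBS in 1 fit over all mice or without the shallow mice, 1 (*Lepr*) for the difference between doses with a plain prior, and between the sexes 0 in DPBS mice and 2 without the shallow mice. Leaving out each mouse in turn gave counts of 0 to 1 at the lower doses, 0 to 3 at 20 mg/kg, 0 to 1 and 1 to 2 against DPBS at 10 and 20 mg/kg, 1 to 2 between the sexes and 0 to 1 for the difference between doses.

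Signs changed for *Igfals* at the lower doses (-0.0023 with median-of-ratios scaling, -0.031 with no covariate, -0.0056 with the replicate block; -0.27 to 0.45 without 1 mouse), *Socs2* at 20 mg/kg (0.059 with that scaling, 0.045 without the shallow mice; -0.35 to 0.25), *Stat5a* (-0.0041 with a pseudocount of 5 TPM; -0.10 to 0.22) and *Lepr* (0.018 in DPBS mice) between the sexes. Without 1 mouse, *Igfbp3* at the lower doses ranged over -0.14 to 0.52, *Stat5a* at 20 mg/kg over -0.027 to 0.92, *Ghr* over -0.014 to 0.35 and -0.13 to 0.034 for the control ASO at 15 and 20 mg/kg against DPBS, and over -0.70 to 0.25 for the interaction with sex. The causes were not tested. Low reads limit *Lepr*, *Stat5a* and *Igfbp3* most.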
